A study of Homo sapiens with 12 samples.

Results

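The multidrug efflux transporters described here are 8 genes of the ATP-binding cassette (ABC) superfamily, ABCB1, ABCB4, ABCC1, ABCC2, ABCC3, ABCC4, ABCC5 and ABCG2, found by symbol among the 38434 named genes of the count tables. They were picked with the maspin comparisons of these same libraries in view, so their values and calls in those comparisons are given as a description, with no p-value, and are no independent test. All 8 were detected in each of the 12 libraries and passed the filter on low counts in every comparison. RNA sequencing was performed on 2 established lung squamous cell carcinoma lines, LK-2 and RERF-LC-AI, both with little endogenous maspin, the serpin-family protein encoded by SERPINB5. LK2-maspin and LC-AI-maspin cells carried a lentivirus for maspin joined by a P2A peptide to the fluorescent protein ZsGreen, and LK2-ctrl and LC-AI-ctrl cells carried the same kind of virus with ZsGreen alone. All 4 groups had thus been transduced and selected with blasticidin, each is a pool of resistant clones, and each has 3 libraries. The labels do not say whether the libraries of a group came from separate cultures, and p-values here cover only how these libraries varied, which may be technical.

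ABC transporters use the energy of ATP to move compounds across membranes, and a subset of them exports anticancer drugs from the cell. ABCB1 encodes P-glycoprotein (MDR1), which exports taxanes, anthracyclines and vinca alkaloids, and its close relative ABCB4 encodes a floppase that brings phosphatidylcholine to the outer leaflet of the membrane, best known from bile formation in the liver. ABCC1 to ABCC5 encode multidrug resistance-associated proteins, which export glutathione, glucuronide and sulfate conjugates, bile salts or nucleotides, and ABCG2 encodes the breast cancer resistance protein. In lung cells ABCC1 is known as a broadly expressed exporter, whereas ABCC2 and ABCC3 are best known from liver and gut.

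ABCB1 (GeneID 5243) lies on the minus strand of chr7:87503017-87713295 and ABCB4 (GeneID 5244) next to it on the same strand at chr7:87365896-87476027. ABCC1 (GeneID 4363) lies on the plus strand of chr16:15949143-16143053, ABCC2 (GeneID 1244) on the plus strand of chr10:99782640-99852594, and ABCC3 (GeneID 8714) on the plus strand of chr17:50634881-50692253. ABCC4 (GeneID 10257) lies on the minus strand of chr13:95019835-95301451, ABCC5 (GeneID 10057) on the minus strand of chr3:183919934-184017884, and ABCG2 (GeneID 9429) on the minus strand of chr4:88090264-88231626. These are RefSeq positions on GRCh38.p14; the authors aligned to GRCh38.p13. ABCB1 and ABCB4 are the pair whose reads could be mixed up. Their coding sequences were 77.53% identical over 3797 aligned bases, and the longest run of identical bases was 122, against at most 23 in any other pair of the 8. The run is given in capitals with 25 bases on either side, from the GENCODE v44 transcripts, and it starts at coding base 3625 of ABCB1 and 3643 of ABCB4.
ABCB1 coding stretch: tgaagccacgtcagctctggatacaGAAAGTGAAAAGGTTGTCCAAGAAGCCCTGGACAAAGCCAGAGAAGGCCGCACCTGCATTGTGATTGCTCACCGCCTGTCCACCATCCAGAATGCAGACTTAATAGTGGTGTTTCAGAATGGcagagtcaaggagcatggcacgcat
ABCB4 coding stretch: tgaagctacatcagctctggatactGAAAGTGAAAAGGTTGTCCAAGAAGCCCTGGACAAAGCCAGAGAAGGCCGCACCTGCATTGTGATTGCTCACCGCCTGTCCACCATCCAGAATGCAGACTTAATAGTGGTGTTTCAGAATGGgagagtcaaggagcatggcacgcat

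Of the 50-base windows of the ABCB1 transcripts, 1.83% occurred in another gene, in every case ABCB4, and of those of ABCB4 1.504% occurred in ABCB1. ABCC5 and ABCG2 had none, and ABCC1, ABCC2, ABCC3 and ABCC4 shared between 0.361% and 0.967% of their windows with 62 to 160 other genes. A read from a shared stretch cannot be assigned by its sequence alone, but these stretches are a small part of each gene.

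ABCB1 has 2 annotated start regions, 112411 bases apart, and the gene counts do not separate transcripts that begin at one from those that begin at the other. The windows from 250 bases before to 50 bases after each start are shown because ABCB1 is the one of the 8 genes whose level differed most between maspin and ctrl cells. They are RefSeq sequences of GRCh38.p14, minus strand, and the capitals mark CCAAT on either strand (ATTGG where it lies on the other strand).
ABCB1 upstream start, chr7:87713246-87713545: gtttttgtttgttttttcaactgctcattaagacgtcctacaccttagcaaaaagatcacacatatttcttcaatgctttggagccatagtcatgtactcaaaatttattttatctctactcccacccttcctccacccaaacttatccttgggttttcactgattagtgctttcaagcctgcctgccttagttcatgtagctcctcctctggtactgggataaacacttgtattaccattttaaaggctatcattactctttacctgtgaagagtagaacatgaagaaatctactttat
ABCB1 downstream start, chr7:87600835-87601134: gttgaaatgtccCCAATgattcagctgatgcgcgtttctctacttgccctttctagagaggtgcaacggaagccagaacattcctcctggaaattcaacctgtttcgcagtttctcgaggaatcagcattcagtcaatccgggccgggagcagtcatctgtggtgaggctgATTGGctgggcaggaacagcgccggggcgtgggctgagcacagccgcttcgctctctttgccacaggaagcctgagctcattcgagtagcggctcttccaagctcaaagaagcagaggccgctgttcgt

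The downstream window had a GC content of 55.3% and held CCAAT at both marked places, at positions -238 and -79 from the start, the first of which shares its last base with a TGANTCA match. The upstream window had a GC content of 37.7% and no such match. In either direction CCAAT was found in 34.6% of the 34796 promoter windows of the same length, so its presence is common. Of the other letters searched on both strands, GCGTG, held by 36.4% of promoters, and TGANTCA, held by 7.73%, occurred in the downstream ABCB1 window. Neither ABCB1 window held the GC box GGGCGG (44.9% of promoters), the TATA box TATAAA (11.6%) or the E-box CACGTG (7.20%). RefSeq promoter windows were matched for 5 of the 8 genes, and no CCAAT was found in the windows of ABCC2, ABCC4, ABCC5 or ABCG2. A match is a description of the letters and not a measured site.

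The libraries held 39802246 to 54941357 counts in named genes for LK-2 and 50143577 to 65454432 for RERF-LC-AI. SERPINB5 followed the labels, with 46.7 ± 1.29 counts-per-million units (CPM) in LK2-maspin cells against 1.83 ± 0.0853 CPM in LK2-ctrl cells, and 503.9 ± 36.8 CPM in LC-AI-maspin cells against 0.221 ± 0.0672 CPM in LC-AI-ctrl cells (SD, n = 3 each). Of 8 markers of squamous lung carcinoma, the squamous and stem cell factor SOX2 averaged 399.6 CPM in LK2-maspin cells and 501.1 CPM in LK2-ctrl cells, but 0.244 CPM in LC-AI-maspin cells and 0.392 CPM in LC-AI-ctrl cells. Of the 8, 2 were below 1 CPM in LK2-maspin cells and 3 in LK2-ctrl cells, KRT14 and PKP1 in both, and the squamous factor TP63 averaged 1.06 CPM in LK2-maspin cells and 1.19 CPM in LK2-ctrl cells. In RERF-LC-AI cells 5 were below 1 CPM in both groups, SOX2, TP63 and the keratins KRT5, KRT6A and KRT14. PKP1 went the other way from SOX2, with 7.915 CPM in LC-AI-maspin cells and 9.05 CPM in LC-AI-ctrl cells, while DSG3 and DSC3 were higher in LK-2. Of 4 fibroblast and mesenchyme markers, the intermediate filament gene VIM was the one with the highest level, at 1640 CPM in LC-AI-maspin cells and 1800 CPM in LC-AI-ctrl cells, against less than 1 CPM in both groups of LK-2. The collagen gene COL1A1 went the other way, with 15.97 CPM in LK2-maspin cells and 15.54 CPM in LK2-ctrl cells, against 6.81 CPM in LC-AI-maspin cells and 6.37 CPM in LC-AI-ctrl cells, and COL3A1 was below 1 CPM in all 4 groups. COL1A2 averaged 16.1 CPM in LC-AI-maspin cells and 32.1 CPM in LC-AI-ctrl cells, and less than 1 CPM in both groups of LK-2. Of 4 neuroendocrine markers, INSM1 averaged 24.4 CPM in LK2-maspin cells and 29.15 CPM in LK2-ctrl cells, and the other 3 were below 1 CPM there. In RERF-LC-AI cells SYP was the one above 1 CPM. Of 4 markers of lung adenocarcinoma, 2 were below 1 CPM in both groups of LK-2, NAPSA and SFTPC. NKX2-1, another of the 4, averaged 4.63 CPM in LK2-maspin cells and 6.03 CPM in LK2-ctrl cells, and less than 1 CPM in RERF-LC-AI cells. SFTPB averaged from 1.002 CPM in LC-AI-maspin cells to 1.63 CPM in LK2-maspin cells over the 4 groups. The summed level of 4 immune markers was at most 2.64 CPM in any library.

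**Figure D1:**
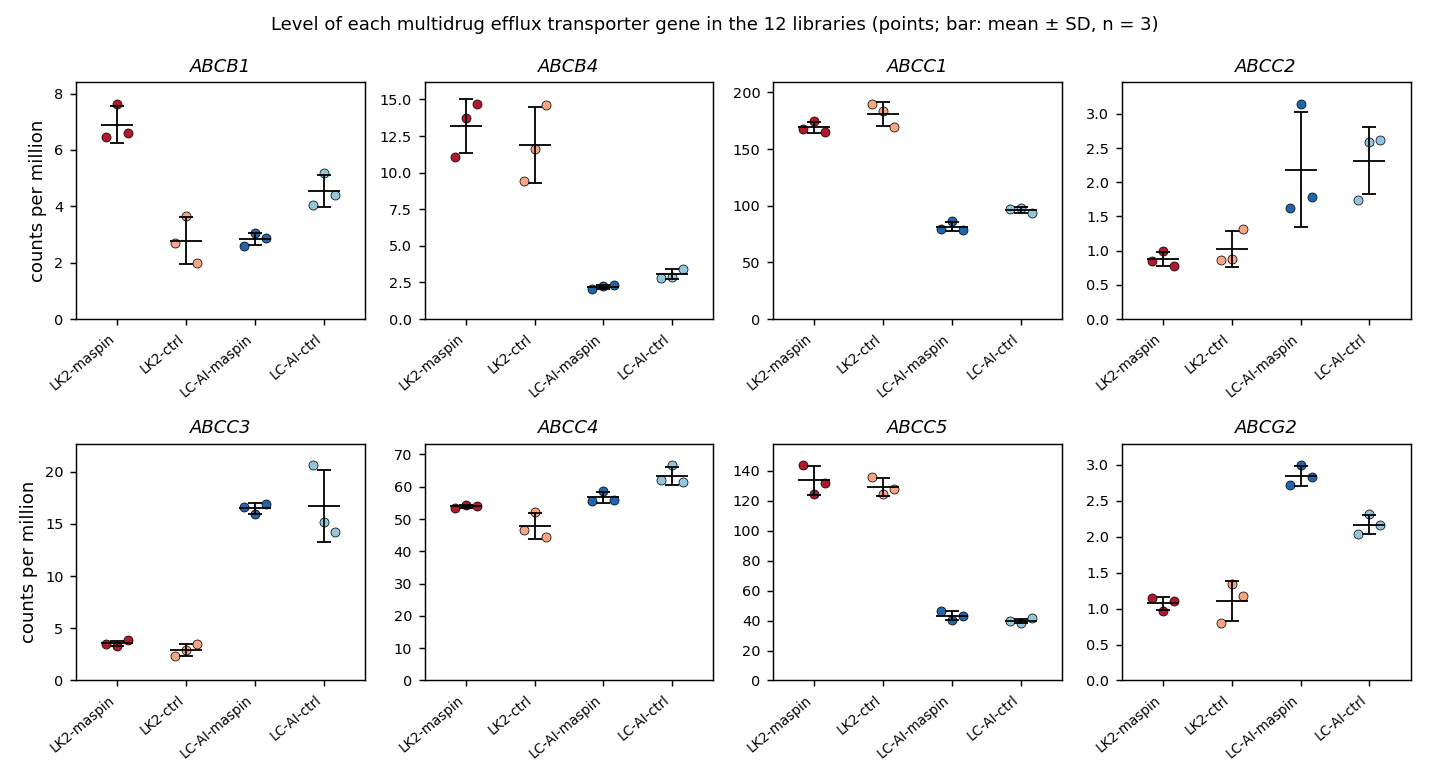
Level of each of the 8 transporter genes in CPM (y axis, from 0) in the 3 libraries of each group (x axis, points), with the mean and SD as bars. The 3 LK2-maspin libraries stand at 6.45 to 7.64 CPM for ABCB1, above all 9 others, while ABCC1, ABCC5 and ABCB4 separate LK-2 from RERF-LC-AI cells in either group.

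The first question was how the exporters differed between maspin and ctrl cells of each line. ABCB1 was higher in LK2-maspin cells and lower in LC-AI-maspin cells than in their controls. ABCC1 was slightly lower in LC-AI-maspin cells. None of the other 6 genes was called in either line by the fit without a replicate block; with the replicate number as a block, ABCC4 was also called in both lines and ABCC5 in RERF-LC-AI. In LK-2, 1 of the 8 was called higher and 0 lower at an adjusted p under 0.05 (edgeR quasi-likelihood test, Benjamini-Hochberg over 26270 genes), where 0.373% of all genes tested were called higher, 0.160% lower and 0.533% in either direction. DESeq2 and the likelihood ratio test of edgeR gave the same counts in both lines. In RERF-LC-AI, 0 of the 8 were called higher and 2 lower, where 4.01% of all genes were called higher, 6.53% of 25197 lower and 10.5% in either direction. Of all calls there 38.0% were higher, against 52.2% with scaling by library totals alone. The 8 had a median log2 fold change of 0.10 in the LK-2 comparison, against -0.00 for all genes tested, and of -0.09 in the RERF-LC-AI one, against 0.01. Since the genes were chosen from these comparisons, nothing is read from these counts.

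ABCB1, the P-glycoprotein gene, had 370, 323 and 330 reads in the LK2-maspin libraries, or 6.45, 7.64 and 6.62 CPM. The LK2-ctrl libraries had 138, 211 and 97 reads, or 2.70, 3.65 and 2.003 CPM. The lowest LK2-maspin library was above the highest LK2-ctrl library, and the log2 fold change was 1.30 ± 0.19 (SE), a 2.46-fold higher level. Without LK2-maspin replicate 2 the log2 fold change was 1.22 ± 0.22 and ABCB1 was no longer called.

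In RERF-LC-AI the order was the other way round. ABCB1 had 130, 181 and 181 reads in the LC-AI-maspin libraries, or 2.60, 3.05 and 2.88 CPM. The LC-AI-ctrl libraries had 195, 264 and 204 reads, or 4.05, 5.18 and 4.41 CPM. Again the groups did not overlap, with a log2 fold change of -0.64 ± 0.14 and a level 0.641 times that of LC-AI-ctrl cells. The log2 fold change in LK-2 minus that in RERF-LC-AI was 1.94 ± 0.25 for ABCB1, and between -0.47 and 0.58 for the other 7 genes.

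**Figure D2:**
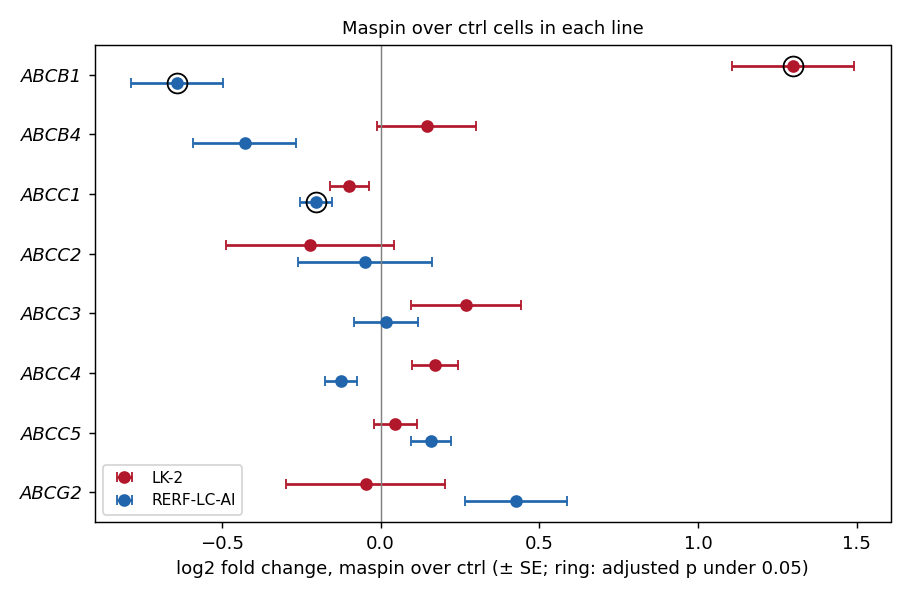
Log2 fold change between maspin and ctrl cells (x axis, points with SE) for each of the 8 genes in either line, with rings around those called at an adjusted p under 0.05. ABCB1 stands at 1.30 in LK-2 and at -0.64 in RERF-LC-AI, and the only other ringed point is ABCC1 in RERF-LC-AI at -0.20.

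ABCB4, the phosphatidylcholine floppase gene beside ABCB1, did not follow it in LK-2. The LK2-maspin libraries had 11.1, 13.8 and 14.7 CPM and the LK2-ctrl libraries 9.42, 11.7 and 14.6 CPM, which overlap, with a log2 fold change of 0.15 ± 0.16. In RERF-LC-AI the LC-AI-maspin libraries had 2.04, 2.27 and 2.32 CPM, all below the 2.83, 2.90 and 3.44 CPM of the LC-AI-ctrl libraries, and the log2 fold change of -0.43 ± 0.16 was not called.

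ABCC1, which exports glutathione conjugates and several anticancer drugs, had 79.9, 86.4 and 78.5 CPM in LC-AI-maspin cells, against 96.9, 98.4 and 93.3 CPM in LC-AI-ctrl cells. The groups did not overlap, and the log2 fold change was -0.20 ± 0.05, a level 0.869 times that of LC-AI-ctrl cells. Without LC-AI-maspin replicate 3 it was -0.18 ± 0.06 and no longer called, and it was also not called when all 12 libraries were fitted together (-0.20 ± 0.06). In LK-2 the 168.1, 174.7 and 165.0 CPM of LK2-maspin cells overlapped the 189.9, 183.7 and 169.4 CPM of LK2-ctrl cells, with a log2 fold change of -0.10 ± 0.06.

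ABCC4, which exports cyclic nucleotides and prostaglandins, lay on the same sides as ABCB1 by much smaller amounts. It was not called in either line without a replicate block, and was called in both with one (log2 0.17 ± 0.05 for LK-2 and -0.12 ± 0.04 for RERF-LC-AI). LK2-maspin cells had 53.6, 54.3 and 53.9 CPM, all above the 46.7, 52.3 and 44.5 CPM of LK2-ctrl cells, with a log2 fold change of 0.17 ± 0.07. LC-AI-maspin cells had 55.7, 58.6 and 55.8 CPM, all below the 62.1, 66.7 and 61.5 CPM of LC-AI-ctrl cells, with a log2 fold change of -0.13 ± 0.05. The log2 fold change in LK-2 minus that in RERF-LC-AI was 0.29 ± 0.09.

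ABCG2, the breast cancer resistance protein gene, was 1 of the least abundant of the 8 in LK-2. Its LC-AI-maspin libraries had 2.72, 2.996 and 2.83 CPM, all above the 2.04, 2.31 and 2.16 CPM of the LC-AI-ctrl libraries, and the log2 fold change of 0.43 ± 0.16 was not called. In LK-2, 41 to 66 reads in the LK2-maspin libraries and 41 to 78 in the LK2-ctrl libraries gave overlapping levels and a log2 fold change of -0.05 ± 0.25.

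The remaining 3 genes overlapped between maspin and ctrl cells in both lines. ABCC2, the canalicular exporter of bilirubin glucuronides, had log2 fold changes of -0.22 ± 0.26 in LK-2 cells and -0.05 ± 0.21 in RERF-LC-AI cells, from 39 to 187 reads in a library. LC-AI-maspin replicate 2 had 3.15 CPM of it, against 1.62 and 1.78 CPM in the other two libraries of that group. ABCC3, a basolateral exporter of glucuronides and bile salts, had 0.27 ± 0.17 in LK-2 cells and 0.02 ± 0.10 in RERF-LC-AI cells. ABCC5, an exporter of cyclic nucleotides and nucleotide analogs, had 0.05 ± 0.07 in LK-2 cells and 0.16 ± 0.06 in RERF-LC-AI cells. With the replicate block ABCC5 was called in RERF-LC-AI (0.16 ± 0.05).

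Counted by overlap, 2 of the 8 genes lay above in all 3 LK2-maspin libraries and 0 below, where 6.46% of all genes tested lay above and 5.39% below. In RERF-LC-AI 1 of the 8 lay above and 4 below in all 3 LC-AI-maspin libraries, where 9.01% of all genes lay above and 15.5% below. These counts stem from the same values that led to the choice of the genes.

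The levels of ABCB1 and ABCC4 also went together among the libraries within a group. The SEs of the maspin comparisons rest on the same spread, so this is not independent of them. In each of the 4 groups the library numbered 2 had the highest level of both genes. In LK2-ctrl cells replicate 3 had the lowest of both, 2.003 CPM of ABCB1 and 44.5 CPM of ABCC4. With log2 CPM centred within each group, Pearson's r was 0.926 over the 12 libraries (Spearman's rho 0.776). Over the 10 left without LK2-ctrl replicates 2 and 3, the farthest from the median, r was 0.770 and rho 0.612. Against ABCB1, 0.109% of 15557 genes reached the r of 0.926 over the 12 libraries, with a median of 0.107 over all of them. Among the other 27 pairs of the 8 genes r was between -0.573 and 0.617. ABCB1 and ABCC4 were picked as the pair with the highest r, so their place among the 15557 genes is a description and no test. The points of a group share a cell pool, and libraries of the same number may share handling, which the labels do not give.

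**Figure D3:**
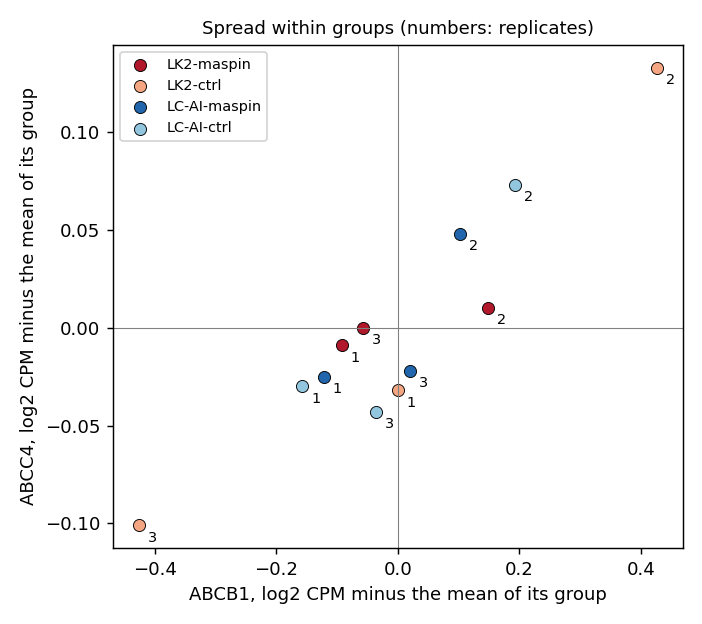
Log2 CPM of ABCC4 (y axis) against that of ABCB1 (x axis), each minus the mean of its group, for the 12 libraries, with replicate numbers beside the points. The 4 libraries numbered 2 lie to the upper right, and LK2-ctrl replicates 2 and 3 mark both ends.

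The second question was how the levels differ between the lines. The choice of the genes did not use this contrast, but it did use the same libraries. The LK-2 and RERF-LC-AI tables were made separately, and the line cannot be told apart from its table and culture medium. In maspin cells, 4 genes were higher in LK-2 than in RERF-LC-AI cells (ABCB1, ABCB4, ABCC1 and ABCC5) and 3 lower (ABCC2, ABCC3 and ABCG2), where 31.4% of 26535 genes were higher and 32.0% lower. In ctrl cells 3 were higher (ABCB4, ABCC1 and ABCC5) and 5 lower, where 32.1% of 26179 genes were higher and 31.6% lower. The 7 of 8 called in maspin cells stand beside 63.3% of all genes, and the 8 of 8 in ctrl cells beside 63.8%.

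ABCC3 had the largest difference below. It averaged 3.54 ± 0.277 CPM in LK2-maspin cells against 16.5 ± 0.482 CPM in LC-AI-maspin cells, a log2 fold change of -2.23 ± 0.11 (adjusted p = 4.009e-14, edgeR). In ctrl cells it averaged 2.94 ± 0.600 CPM in LK-2 against 16.7 ± 3.45 CPM in RERF-LC-AI, a log2 fold change of -2.49 ± 0.17 (adjusted p = 7.444e-09, edgeR). Every RERF-LC-AI library was above every LK-2 library.

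ABCB4 had the largest difference above, with 13.2 ± 1.87 CPM in LK2-maspin cells against 2.21 ± 0.148 CPM in LC-AI-maspin cells and a log2 fold change of 2.55 ± 0.13 (adjusted p = 1.599e-13, edgeR). In ctrl cells the log2 fold change was 1.97 ± 0.16 (adjusted p = 6.211e-08, edgeR). ABCC5 was 3.05-fold higher in LK2-maspin than in LC-AI-maspin cells (log2 1.61 ± 0.07, adjusted p = 1.158e-14, edgeR) and 3.28-fold higher in LK2-ctrl than in LC-AI-ctrl cells (log2 1.71 ± 0.07, adjusted p = 1.847e-11, edgeR). For ABCC1 the log2 fold changes were 1.04 ± 0.07 in maspin cells (adjusted p = 3.953e-12, edgeR) and 0.92 ± 0.07 in ctrl cells (adjusted p = 1.634e-08, edgeR).

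The 2 exporters with the fewest reads in LK-2, ABCC2 and ABCG2, were lower there. ABCG2 had log2 fold changes of -1.42 ± 0.19 in maspin cells (adjusted p = 8.457e-07, edgeR) and -0.95 ± 0.22 in ctrl cells (adjusted p = 0.001627, edgeR). ABCC2 had -1.34 ± 0.26 in maspin cells (adjusted p = 9.538e-05, edgeR) and -1.17 ± 0.24 in ctrl cells (adjusted p = 0.0005936, edgeR).

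ABCB1 and ABCC4 differed between the lines in another way in maspin than in ctrl cells. ABCB1 was 2.39-fold higher in LK2-maspin than in LC-AI-maspin cells (log2 1.26 ± 0.14, adjusted p = 4.816e-08, edgeR), but lower in LK2-ctrl than in LC-AI-ctrl cells (log2 -0.69 ± 0.20, adjusted p = 0.008016, edgeR). The second call was lost when libraries were scaled by their totals alone (log2 -0.47 ± 0.20, adjusted p = 0.05108, edgeR) or by upper quartiles (log2 -0.48 ± 0.20, adjusted p = 0.05002, edgeR). Scaling by totals shifted the log2 fold changes between the lines by a median of 0.22 in ctrl cells and 0.18 in maspin cells. ABCC4 was lower in LK2-ctrl than in LC-AI-ctrl cells (log2 -0.39 ± 0.08, adjusted p = 0.0004493, edgeR) and was not called in maspin cells (log2 -0.09 ± 0.06, adjusted p = 0.2382, edgeR). These are the libraries of the maspin comparisons, so the change of order restates the fold changes that led to the choice of the genes, and it was not tested. For ABCB1 and ABCC4 the adjusted p-values between the lines rest on those same values and are no independent test.

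**Figure D4:**
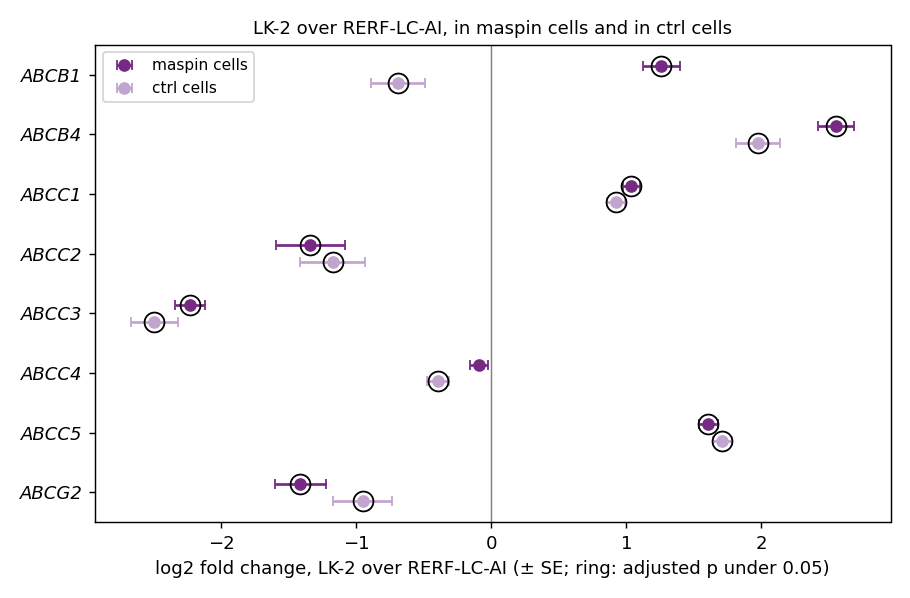
Log2 fold change of LK-2 over RERF-LC-AI cells (x axis, points with SE) for each of the 8 genes in maspin and in ctrl cells, with rings around those called at an adjusted p under 0.05. The points of 6 genes are called on the same side of 0 in both, and those of ABCB1 lie at 1.26 in maspin cells and at -0.69 in ctrl cells.

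Levels can be compared between genes only per length, here in CPM per kb of the merged exons of each gene. By this measure ABCC1 was the most abundant exporter in all 4 groups, and ABCC2 had the lowest mean. ABCC1 reached 19.4 ± 0.565 CPM per kb in LK2-maspin cells and 20.7 ± 1.20 in LK2-ctrl cells, and 9.34 ± 0.485 in LC-AI-maspin cells and 11.01 ± 0.301 in LC-AI-ctrl cells. It made up 47.5% of the summed level per kb of the 8 genes in LK2-maspin cells and 51.5% in LK2-ctrl cells, and 40.7% in LC-AI-maspin cells and 43.4% in LC-AI-ctrl cells. The summed level was 40.8 ± 0.413 CPM per kb in LK2-maspin cells and 40.2 ± 1.34 in LK2-ctrl cells, and 23.0 ± 0.583 in LC-AI-maspin cells and 25.4 ± 0.548 in LC-AI-ctrl cells. ABCB1 was a small part of it, 2.63% in LK2-maspin cells and 1.07% in LK2-ctrl cells, and 1.93% in LC-AI-maspin cells and 2.79% in LC-AI-ctrl cells.

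In both groups of LK-2 the order by level per kb ran ABCC1, ABCC5, ABCC4, ABCB4, ABCB1, ABCC3, ABCG2, ABCC2. In LK2-maspin cells no neighbours in it overlapped. In LK2-ctrl cells ABCB1 (0.434 ± 0.129 CPM per kb) overlapped ABCC3 (0.306 ± 0.0624), and ABCG2 overlapped ABCC2. In LC-AI-maspin cells the order was ABCC1, ABCC4, ABCC5, ABCC3, ABCG2, ABCB1, ABCB4, ABCC2, with ABCB4 (0.286 ± 0.0191) and ABCC2 (0.279 ± 0.107) overlapping. In LC-AI-ctrl cells ABCB1 (0.708 ± 0.0894) came after ABCC3 and before ABCB4 (0.395 ± 0.0431) and ABCG2 (0.388 ± 0.0248), which overlapped. ABCC3 at 1.71 ± 0.0501 CPM per kb in LC-AI-maspin cells and 1.73 ± 0.359 in LC-AI-ctrl cells took the fourth place that ABCB4 held in LK-2. With the length of the longest transcript in place of the merged exons, all 32 ranks were the same.

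**Figure D5:**
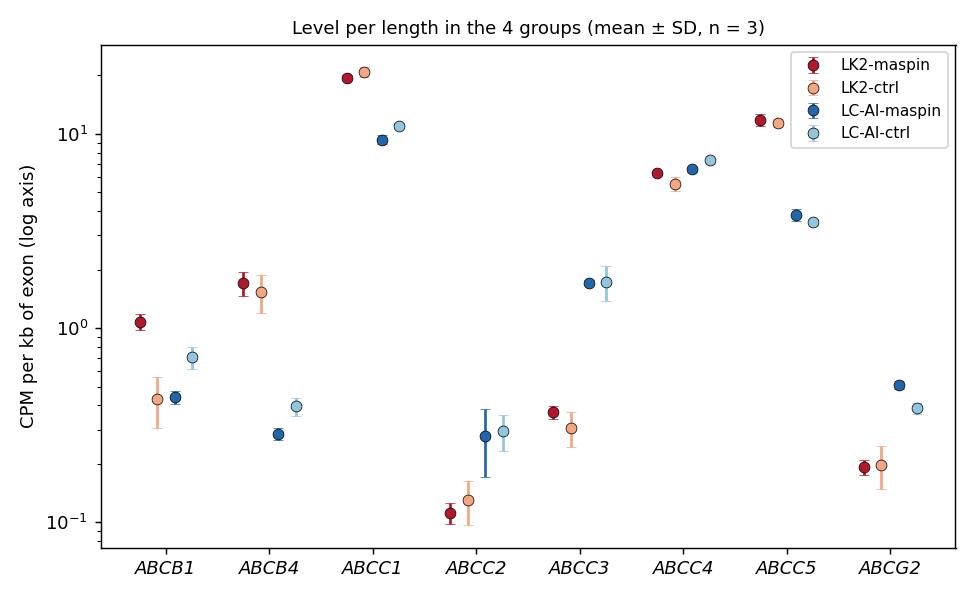
Level per kb of exon (y axis, log scale) of the 8 genes in the 4 groups, as mean and SD of 3 libraries. ABCC1, ABCC5 and ABCC4 lie above 3 CPM per kb in every group, and the fourth place is held by ABCB4 in both groups of LK-2 and by ABCC3 in both groups of RERF-LC-AI.

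Genes around the called exporters were examined by position. Within 500 kb of ABCB1, other than ABCB4, 13 named genes were tested, and in LK-2 0 of them were called with edgeR (1 at an unadjusted p under 0.05), at a background of 0.533%. RUNDC3B, which overlaps ABCB1, had a log2 fold change of 0.14 ± 0.18 in LK-2 cells and 0.13 ± 0.17 in RERF-LC-AI cells. In RERF-LC-AI 1 of the 13 was called, at a background of 10.5%, the adhesion gene ADAM22, which was lower in LC-AI-maspin cells (log2 -0.42 ± 0.10, adjusted p = 0.006566, edgeR). Within 500 kb of ABCC1, 4 of 11 genes tested in RERF-LC-AI were called, at the same background of 10.5%. CEP20 (log2 -0.24 ± 0.05, adjusted p = 0.003067, edgeR) and NDE1 (log2 -0.16 ± 0.05, adjusted p = 0.04029, edgeR) were lower, and PKD1P1 and NPIPA7, which belong to families of near-identical copies, were higher. ABCC6, the neighbour and relative of ABCC1, had 0.01 ± 0.27 there. In LK-2 0 of 12 were called with edgeR, and 0 had an unadjusted p under 0.05.

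The genes whose log2 CPM, centred within each line, followed a called exporter most closely over the 12 libraries were looked for among 15557 genes. For ABCB1 they were MPP1 (Pearson's r 0.957), TWIST1 (0.947), TBC1D30 (0.947), LEMD3 (0.942) and THBS1 (0.936). For ABCC1 they were ADAM15 (0.979), GPAA1 (0.977), BACE2 (0.958), PGAP4 (0.954) and RNASEH2A (0.954). MPP1, a membrane scaffold gene, had log2 fold changes of 1.19 in LK-2 cells and -0.53 in RERF-LC-AI cells, and THBS1, which encodes the matrix protein thrombospondin, had 1.27 in LK-2 cells and -0.71 in RERF-LC-AI cells. Among those 15557 genes ABCC4 stood at rank 13 for ABCB1, with an r of 0.927. These correlations include the maspin contrast and are a description of the pattern.

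The other genes of drug transport and metabolism were taken from 12 lists of 177 genes. In LK-2, 155 were tested, 2 were higher and 0 lower in LK2-maspin cells, or 1.29% against 0.533% of all genes (edgeR). At an unadjusted p under 0.05 the numbers were 8 higher and 6 lower, and with DESeq2 2 and 0. Both calls were lost without LK2-maspin replicate 2 or 3 or LK2-ctrl replicate 1 or 2, each of which left 0. In RERF-LC-AI, 149 were tested, 5 were higher and 15 lower in LC-AI-maspin cells, or 13.4% against 10.5% of all genes. The balance of higher and lower calls depended on the scaling, with 9 higher and 11 lower by upper-quartile factors and 12 higher and 10 lower by library totals alone. Without LC-AI-maspin replicate 3 there were 13 calls in all, and without LC-AI-ctrl replicate 3 there were 12. No listed gene was called in both lines. The lists had a median log2 fold change of -0.00 in the LK-2 comparison and of 0.05 in the RERF-LC-AI one, against -0.00 and 0.01 for all genes tested.

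Of the 40 other genes of the ABC superfamily, all tested in LK-2, 1 was higher and 0 lower, or 2.5% against 0.533% of all genes. This was the lysosomal ABCA5, at 11.1 ± 0.957 CPM in LK2-maspin cells against 7.02 ± 0.631 CPM in LK2-ctrl cells (log2 0.66 ± 0.12, adjusted p = 0.02653, edgeR). In RERF-LC-AI 38 were tested, 1 was higher and 2 lower in LC-AI-maspin cells, or 7.89% against 10.5% of all genes. ABCB6, a porphyrin transporter, fell to 8.32 ± 0.671 CPM in LC-AI-maspin cells, against 12.9 ± 0.125 CPM in LC-AI-ctrl cells (log2 -0.60 ± 0.10, adjusted p = 4.863e-05, edgeR). ABCD3, which carries fatty acids into peroxisomes, was lower (log2 -0.23 ± 0.06, adjusted p = 0.004782, edgeR), and TAP2, the antigen peptide transporter subunit, was higher (log2 0.23 ± 0.05, adjusted p = 0.002156, edgeR).

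Among 24 regulators of efflux genes, 0 were called in LK-2 with edgeR or DESeq2, and 2 had an unadjusted p under 0.05. With edgeR 0.533% of all genes were called in that line. In RERF-LC-AI 1 was higher and 3 lower, or 16.7% against 10.5% of all genes. The forkhead factor FOXO1 fell to 4.33 ± 0.466 CPM in LC-AI-maspin cells, against 7.42 ± 0.871 CPM in LC-AI-ctrl cells (log2 -0.74 ± 0.13, adjusted p = 0.0001084, edgeR). RXRA, the partner of the xenobiotic receptors, was lower (log2 -0.34 ± 0.05, adjusted p = 1.187e-05, edgeR), as was the deacetylase gene HDAC1 (log2 -0.15 ± 0.05, adjusted p = 0.03717, edgeR). NR1I3, the constitutive androstane receptor, was higher (log2 0.61 ± 0.20, adjusted p = 0.04741, edgeR).

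Drug uptake carriers and metal pumps were looked at in each line, and the lines were not tested against each other. SLCO2A1, the prostaglandin carrier, was 2.54-fold higher in LK2-maspin cells (log2 1.34 ± 0.24, adjusted p = 0.03331, edgeR), at 13.1 ± 3.43 CPM against 5.14 ± 1.86 CPM in LK2-ctrl cells. It was the only 1 of 23 uptake carriers called there, or 4.35% against 0.533% of all genes. In RERF-LC-AI 2 of 24 were higher and 4 lower, where 4.01% of all genes were higher and 6.53% lower (10.5% in all). SLCO1B3, an organic anion carrier that also takes up taxanes, fell to 3.42 ± 0.496 CPM in LC-AI-maspin cells, against 7.87 ± 0.0862 CPM in LC-AI-ctrl cells (log2 -1.17 ± 0.13, adjusted p = 1.592e-07, edgeR). SLC31A2, a copper transporter, was lower (log2 -0.50 ± 0.12, adjusted p = 0.003896, edgeR). The nucleoside carrier SLC29A2 was higher (log2 0.38 ± 0.07, adjusted p = 0.0001828, edgeR), as was the organic anion carrier SLCO3A1 (log2 0.28 ± 0.08, adjusted p = 0.0255, edgeR). Of 6 other exporters and metal pumps, 0 were called in LK-2 with edgeR or DESeq2, and 2 had an unadjusted p under 0.05. In the other line 33.3% of these 6 were called, against 10.5% of all genes. There the copper pump ATP7B fell to 9.51 ± 0.960 CPM in LC-AI-maspin cells, against 17.5 ± 1.57 CPM in LC-AI-ctrl cells (log2 -0.85 ± 0.09, adjusted p = 2.109e-07, edgeR).

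In drug metabolism 0 of the 62 genes tested from 3 lists were called in LK-2 with edgeR or DESeq2, and 4 had an unadjusted p under 0.05. In that line 0.533% of all genes were called with edgeR. Of 20 glutathione genes tested in RERF-LC-AI, 3 were lower, among them the glutathione transferase genes GSTM3 (log2 -0.25 ± 0.07, adjusted p = 0.01385, edgeR) and GSTM1 (log2 -0.16 ± 0.05, adjusted p = 0.04083, edgeR). Of 23 cytochrome P450 genes, 8.7% were called, against 10.5% of all genes. Here 1 was higher, the vitamin D hydroxylase CYP2R1 (log2 0.30 ± 0.07, adjusted p = 0.003041, edgeR), and 1 lower. Of 14 genes of glucuronidation and sulfation 0 were called with edgeR or DESeq2, and 1 had an unadjusted p under 0.05. These lists were drawn up with earlier results of these libraries known.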

How the data were processed

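Polyadenylated, strand-specific libraries of the 4 groups were sequenced for the authors by a service provider on an Illumina instrument. Per the labels and the study's methods, the reads were trimmed with Trimmomatic 0.39, aligned to GRCh38.p13 with BWA 0.7.17 and handled with SAMtools 1.12 (LK-2) or 1.10 (RERF-LC-AI). How reads were counted is not stated in these sources. The authors deposited raw counts per gene in 1 table a line, which were used here. The deposited signal columns, counts that the authors scaled by library total or by TMM in edgeR 3.16.5, were not used. Counts from 1 to 9 were odd in 23.7% to 25.9% of cases, so most are even and both reads of a pair appear to be counted; halving them was an alternative. The 646 lines without a symbol held 0.292% to 0.416% of the counts and were left out.

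Genes were filtered with filterByExpr (minimum count 10, minimum total 15), scaled by TMM and fitted with the quasi-likelihood test of edgeR 4.0.16 in R 4.3.3, 6 libraries a comparison, with Benjamini-Hochberg adjustment over all genes tested. SEs belong to the log2 fold changes of these fits. CPM values use TMM factors over all 12 libraries, and between-line comparisons assume that most genes are alike. Libraries of a group differed by more than counting noise (chi-square per degree of freedom 4.70 to 26.5). The scripts were tested on simulated data. The 8 genes and all lists were chosen with earlier results of these data known. Named were the 8 genes, up to 4 called genes a list and line with the largest log2 fold change, at least 1 CPM and no overlap between groups, overlapping genes and those within 500 kb of a called exporter that were called, the 5 genes with the highest r to a called exporter, SERPINB5 and cell type markers. Alternatives were DESeq2 1.42.0, the likelihood ratio test, other scalings and filters, a replicate block, all 12 libraries in 1 fit and leaving out each library. One gene of the list of other exporters and metal pumps is not reported here.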

Additional observations from a re-analysis of the deposited data

Results flagged for a closer look

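ABCB1 and ABCC4 stood higher in all 3 LK2-maspin libraries than in all 3 LK2-ctrl libraries, and lower in all 3 LC-AI-maspin libraries than in all 3 LC-AI-ctrl libraries. The LK-2 log2 fold change between maspin and ctrl cells, minus the RERF-LC-AI one, was 1.94 for ABCB1 and 0.29 for ABCC4. Since both genes were chosen from these comparisons, the difference was not tested. SERPINB5 averaged 46.7 CPM in LK2-maspin cells and 503.9 CPM in LC-AI-maspin cells, so the lines also differ in the amount of maspin RNA, whose part in the difference was not tested.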

How the results depend on the processing

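Of 763 alternative values, 734 were counted as unchanged. For fold changes this meant the same side of the threshold, and for numbers of genes called an equal or similar number. For the LK-2 minus RERF-LC-AI differences it meant a value within the spread of the replicates. Genes not called could change sign and still count as unchanged. ABCC2 did so in LK-2 (log2 0.005 without LK2-ctrl replicate 3, against -0.22). So did ABCG2 (up to 0.12, against -0.05) and ABCC5 (down to -0.01, against 0.05) there when single libraries were left out. In RERF-LC-AI the same held for ABCC2 (up to 0.11, against -0.05) and ABCC3 (down to -0.08, against 0.02). Between the lines in maspin cells ABCC4 changed sign under other settings (up to 0.09, against -0.09). ABCB1 was called higher in LK-2 and lower in RERF-LC-AI under each other test, scaling and filter run; its log2 fold change was between 1.115 and 1.54 in LK-2 and between -0.71 and -0.55 in RERF-LC-AI over all alternatives. In LK-2 the number of the 8 genes called was 0 to 1 when single libraries were left out, and 2 with a replicate block, which added ABCC4. In RERF-LC-AI it was 1 to 3 when single libraries were left out, 4 with the replicate block, which added ABCC4 and ABCC5, and 1 when all 12 libraries were fitted together. Without LC-AI-maspin replicate 2, ABCC5 was called higher there (log2 0.22). The listed genes called in LK-2 numbered 0 to 3 when single libraries were left out, 0 at an adjusted p under 0.01 and 12 with the block. In RERF-LC-AI they numbered 12 to 21, 11 and 36, and 8 with all 12 libraries together.

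Whether the replicate numbers pair the libraries depends on the genes used. Over all genes tested, the set fixed for this check, not every pair reached 0.1, and equal-numbered libraries had correlations of 0.154, 0.0144 and 0.164 in LK-2 and of 0.0443, 0.0542 and 0.00183 in RERF-LC-AI. Over the genes with a mean log2 CPM over 3 every pair did, with 0.751, 0.117 and 0.756 in LK-2 and 0.362, 0.389 and 0.203 in RERF-LC-AI, and the labels name no shared day or culture. Over all genes, in LK-2 each of the 3 LK2-maspin libraries correlated best with the LK2-ctrl library of its own number, and so did those numbered 1 and 2 in RERF-LC-AI. Over the genes with a mean log2 CPM over 3, every maspin library of both lines did so. With the replicate block the genes called over the whole table numbered 1190 in LK-2, against 140, and 4081 in RERF-LC-AI, against 2655. Over all genes the LK-2 calls numbered 314 with the likelihood ratio test, 280 with DESeq2 and 70 at an adjusted p under 0.01, and 50 without LK2-ctrl replicate 2. In RERF-LC-AI 38.0% of calls were higher with TMM and 52.2% with library totals alone; between the lines in ctrl cells it was 50.4% and 61.3%. When single libraries were left out, the LK-2 minus RERF-LC-AI difference was 1.78 to 2.19 for ABCB1, 0.07 to 0.17 for ABCC1, -0.32 to 0.21 for ABCC2 and 0.26 to 0.37 for ABCC4. ABCC2 and ABCG2, with 39 to 187 reads a library, carry the largest counting error. The causes of these changes were not tested, beyond the smaller number of libraries where some were left out.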
